A study of Mus musculus with 6 samples.

Results

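The data described here are the splicing events listed in 9 mouse genes whose proteins act on chromatin (Ehmt1, Jarid2, Kdm6a, Sin3a, Smarcc2, Smarca1, Dnmt3b, Tcf20 and Setbp1). The genes were chosen from the lists themselves, as chromatin genes in which an event was listed whose interval lay inside the gene and matched the edges of its annotated exons, so the presence of an event in each of them is a description and not a finding. These 9 are not all the chromatin genes with an event, since 11 others of a wider list, described below, also had one. The 9 genes gave 9 events, 1 per gene, of 643 distinct events in 581 genes. RNA was sequenced from P19 cells, a mouse embryonal carcinoma line with stem cell properties, in 3 samples with SFPQ knockdown by transfected small interfering RNA (siSfpq) and 3 control samples. Sfpq binds RNA in the nucleus and is a component of paraspeckles, and the sequencing addressed splicing and 3′ end choice as routes by which its loss could affect microRNA targets. The study reports that neither route was regulated by Sfpq in those 3′UTRs where it directly promotes microRNA targeting. The events found to differ between knockdown and control cells come in 3 lists, here lists 1 to 3 after their replicate numbers, with 270, 264 and 257 distinct events. Each list gives the position and type of an event and nothing else. No event carries an inclusion level, a direction, a read count or an error, so it is not known which form was more abundant after the knockdown, and the depth behind an event is unknown. The lists hold no expression values either, so they offer no check of the knockdown. No event lay in Sfpq (0 listed).

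Chromatin regulators add, remove or read chemical marks on histones and DNA, or move nucleosomes with the energy of ATP, and most of them work inside large complexes. In embryonic stem cells and embryonal carcinoma cells some of them hold genes of other lineages in a repressed or poised state. Splicing can change such proteins in several ways, by adding or removing a stretch inside the protein, by exchanging its last residues, or by altering only the leader of the mRNA ahead of the start codon, in which case the protein stays the same.

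The bases at the coding events show what each choice of splice site adds, and 5 of the 6 coding events are shown (the Setbp1 event is described without its bases). All are reference mRNA sequences of GENCODE M21 (GRCm38, the assembly of mm10), read 5′ to 3′, with the bases that only the long form holds in capitals. The short forms join the flanking bases directly. Each sequence is 30 nt of coding sequence.
Ehmt1, long form: gacagCTTGCTTGCCTTTTGTTTTAGcagc
Ehmt1, short form: caaagtcccagacagcagctgcagtatctc
Kdm6a, long form: tacattaGTAAGTGAAATCAACATgctcct
Kdm6a, short form: gaccaatttacattagctcctccattacca
Smarcc2, long form, first bases of the exon: aagcctccacagGGCCGCCAGGTTGATGCT
Smarcc2, long form, last bases of the exon: AAGGGCAAGCCAGAGCTGcagagctctgct
Smarcc2, short form: ccgaagcctccacagcagagctctgcttcc
Smarca1, long form to its stop codon: ccaatgGTAAAATTTTCAGCATTTTCCTAA
Smarca1, short form: actaaaactccaatgtcacagaaaagaaaa
Tcf20, long form, first bases of the exon: cccaagcacaagCCTCCCCTTCCATGCCCT
Tcf20, long form to its stop codon: CTCAGCACAGAGCAGTCCGAGCGGGGGTGA
Tcf20, short form: tgccccaagcacaaggtgagactgtggaga

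The 9 events fell into 3 places. Events of Sin3a, Jarid2 and Dnmt3b lay ahead of the start codon, in exon 1 or 2. Events of Kdm6a, Smarca1 and Tcf20 lay in the next-to-last exon and changed the last residues of the protein. Events of Ehmt1, Smarcc2 and Setbp1 lay inside the coding sequence. By type, 5 were cassette exons (exons included or skipped whole) and 3 were alternative donor sites (5′ splice sites). The other was 1 alternative acceptor site (3′ splice site), with no retained intron. Of the 634 other listed events, 68.5% were cassette exons, 14.2% donor sites, 15.1% acceptor sites and 2.21% retained introns.

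**Figure D1:**
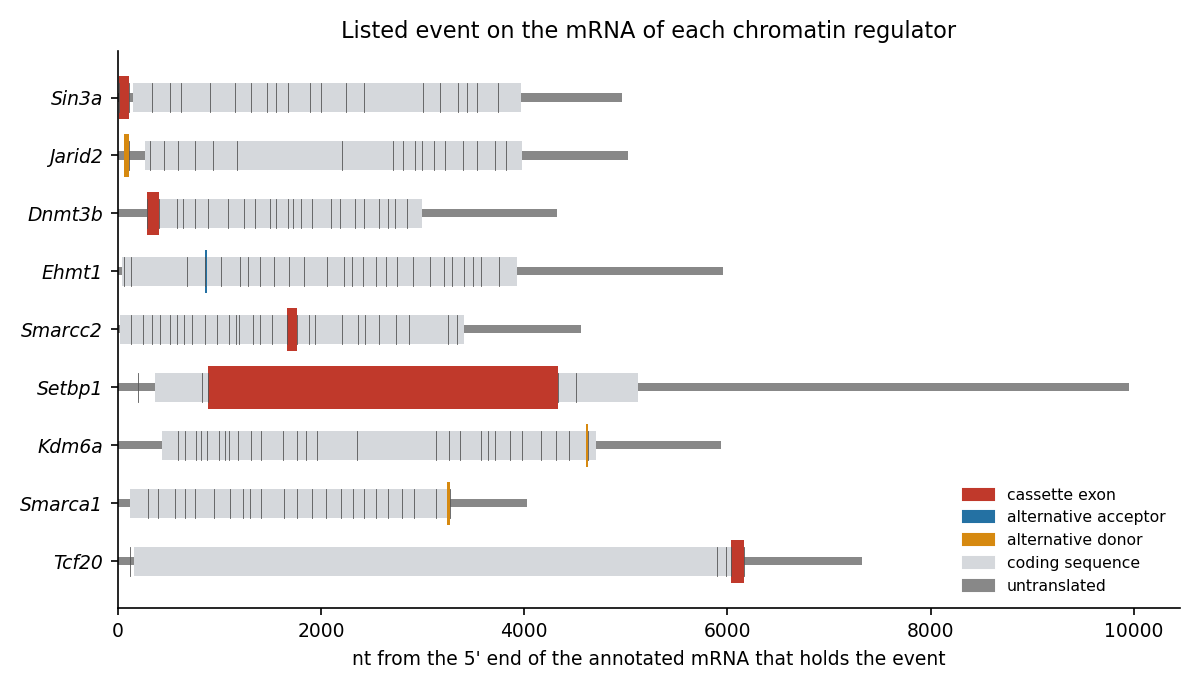
Position of the listed event on the annotated mRNA that holds it, in nt from the mRNA's 5′ end. Wide grey bars are coding sequence, narrow bars untranslated sequence, thin lines exon junctions and coloured bars the event by type. The top 3 genes have the event ahead of the coding sequence, the next 3 inside it and the last 3 at or near its end, and the 3448-nt exon of Setbp1 takes up most of its coding sequence.

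Ehmt1 makes GLP, a methyltransferase that works with its partner G9a on lysine 9 of histone H3. Its event, an alternative acceptor 21 nt long, spans positions 24863909 to 24863929 of chromosome 2 (mm10, minus strand). It lies at the start of exon 5 of 27 and stood in list 1 alone. The far acceptor made an exon of 158 nt and the near one an exon of 137 nt. All 21 nt were coding. The predicted protein had 1296 residues with these bases and 1289 without, with the same first 273 and last 1016 residues, so the choice adds 7 residues and leaves the rest alone. As printed above, the added stretch is rich in T and ends in AG, the bases that close an intron when the near acceptor is used. In the annotation 7 transcripts used the far acceptor and 4 the near one, and 1 transcript used another acceptor, 24 nt from the far one, which was not listed. A further 7 exon intervals of Ehmt1, 3 of which overlap, are skipped in some annotated transcript, and 0 of them were listed. The share of all annotated skipped exons that were listed was not computed. Nothing is therefore read from such counts of unlisted exons, here or for the genes below.

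Jarid2 is a partner of Polycomb repressive complex 2 (PRC2), which methylates lysine 27 of histone H3, and helps to bring that complex to its targets. Its event, an alternative donor 46 nt long, spans positions 44730889 to 44730934 of chromosome 13 (plus strand). It lies in exon 1 of 19 and stood in lists 2 and 3. The whole of it lay in the 5′UTR, which measured 271 nt with the event and 225 nt without, and the protein had 1234 residues in both forms. The added bases held an ATG upstream of the start codon, so that the leader had 2 upstream ATG codons with the event and 1 without. The reading frame that opened at the added ATG ran for 44 codons and ended ahead of the start codon. In the annotation 1 transcript used the far donor, 2 the near donor and 1 a donor between them, which was not listed. A further 5 exons are skipped in some annotated Jarid2 transcript, of which 0 were listed.

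Kdm6a (UTX), an X-linked demethylase of lysine 27 of histone H3, removes the mark that PRC2 writes. Its event, an alternative donor 17 nt long, spans positions 18277547 to 18277563 of chromosome X (plus strand). It lies at the end of exon 28 of 29 and stood in list 3 alone. All 17 nt were coding and the length is not divisible by 3, so the last exon is read in another frame. The predicted protein had 1424 residues with the event and 1401 without, and shared the first 1392. The last 32 residues with the event were replaced by 9 without it. Both donors have a GT as the first 2 intron bases, as seen for the near donor in the capitals printed above. In the annotation 1 transcript used the far donor and 2 the near donor. None of the 3 Kdm6a exons that some annotated transcript skips was listed.

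Sin3a is the scaffold of a corepressor complex that holds the histone deacetylases Hdac1 and Hdac2. Its event, a cassette exon 108 nt long, spans positions 57081095 to 57081202 of chromosome 9 (plus strand). It is exon 2 of 22 and stood in list 2 alone. It lay wholly in the 5′UTR, which measured 148 nt with the exon and 40 nt without in the annotated transcript with most exons. The protein had 1274 residues in both forms. The exon held an ATG, and the leader had 2 upstream ATG codons with the exon and 1 without. The reading frame opened by the added ATG ran for 8 codons and ended ahead of the start codon. The exon was present in 3 annotated transcripts and skipped in 2. Sin3a has 1 other exon with annotated skipping, of 177 nt and wholly coding, and it was not listed.

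Smarcc2 (BAF170) is a core subunit of the SWI/SNF (BAF) complex, which moves and evicts nucleosomes. Its event, a cassette exon 93 nt long, spans positions 128481682 to 128481774 of chromosome 10 (plus strand). It is exon 18 of 29 and stood in list 3 alone. The exon was wholly coding and kept the frame. The predicted protein had 1130 residues with the exon and 1099 without, the same first 550 and last 549 residues, and 31 residues found only in the long form. It was the only Smarcc2 exon whose skipping is annotated with both neighbours kept. The annotation held 1 transcript with it and 3 without. Its flanking introns were short, 677 nt upstream and 308 nt downstream.

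Smarca1 (SNF2L) is an ATPase of the ISWI family, which slides and spaces nucleosomes. Its event, an alternative donor 31 nt long, spans positions 47811127 to 47811157 of chromosome X (minus strand). It lies at the end of exon 23 of 24 and was the one event among the 9 that stood in all 3 lists. Of the 31 nt, 24 were coding and 7 lay in the 3′UTR, because the long form ends at a stop codon inside the event, the TAA that closes the capitals printed above. The predicted protein had 1046 residues with the event and 1062 without, and shared the first 1039. Here the longer mRNA therefore encodes the shorter protein, with 7 last residues of its own against 23 in the other form. The stop codon of the long form lay 7 nt ahead of the last exon junction. Both donors began with GT, and 1 annotated transcript used each. The gene's 1 other annotated skipped exon, of 36 nt, was not listed.

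Dnmt3b is a DNA methyltransferase that sets new methylation in the early embryo and is expressed in pluripotent cells. Its event, a cassette exon 115 nt long, spans positions 153650785 to 153650899 of chromosome 2 (plus strand). It is exon 2 of 24 and stood in list 2 alone. The exon lay wholly in the 5′UTR, which measured 408 nt with it and 293 nt without. Neither form had an upstream ATG, and the protein had 860 residues in both. The annotation held 5 transcripts with the exon and 5 without. A coding exon of 60 nt with annotated skipping was not listed.

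Tcf20 is a nuclear transcriptional coregulator with a chromatin-binding zinc finger region. Its event, a cassette exon 123 nt long, spans positions 82814481 to 82814603 of chromosome 15 (minus strand). It is exon 5 of 6 and stood in list 2 alone. The exon held the last 84 coding nt, the stop codon (the TGA at the end of the capitals printed above) included, and 39 nt of 3′UTR. The predicted protein had 1987 residues with the exon and 1965 without, and shared the first 1960, with 27 last residues of its own in the long form against 5 in the short form. The stop codon of the long form lay 39 nt ahead of the last exon junction. The length of the exon is divisible by 3, yet no frame is kept across it, since translation ends inside it. The annotation held 1 transcript with the exon and 1 without.

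Setbp1 is a nuclear protein that binds SET, an inhibitor of protein phosphatase 2A and a histone chaperone, and that contacts DNA through AT-hooks. Its event, a cassette exon 3448 nt long, spans positions 78856484 to 78859931 of chromosome 18 (minus strand). It is exon 4 of 6 and stood in lists 1 and 2. The exon was wholly coding and made up 72.6% of the coding sequence. It lay between introns of 64057 nt upstream and 73054 nt downstream, against 308 to 13525 nt for the introns beside the other 8 events. The annotation holds 1 transcript of Setbp1 and none that skips the exon. The protein had 1582 residues with the exon. Without it the frame shifted, and the constructed mRNA encoded 179 residues, the first 173 of them shared, with a stop codon 150 nt ahead of the last exon junction. That was the one case among the 9 genes, in either form, of a stop codon more than 50 nt ahead of the last junction, the usual rule for a target of nonsense-mediated decay. Whether the short mRNA was present in the cells was not tested, as the lists give no reads.

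**Figure D2:**
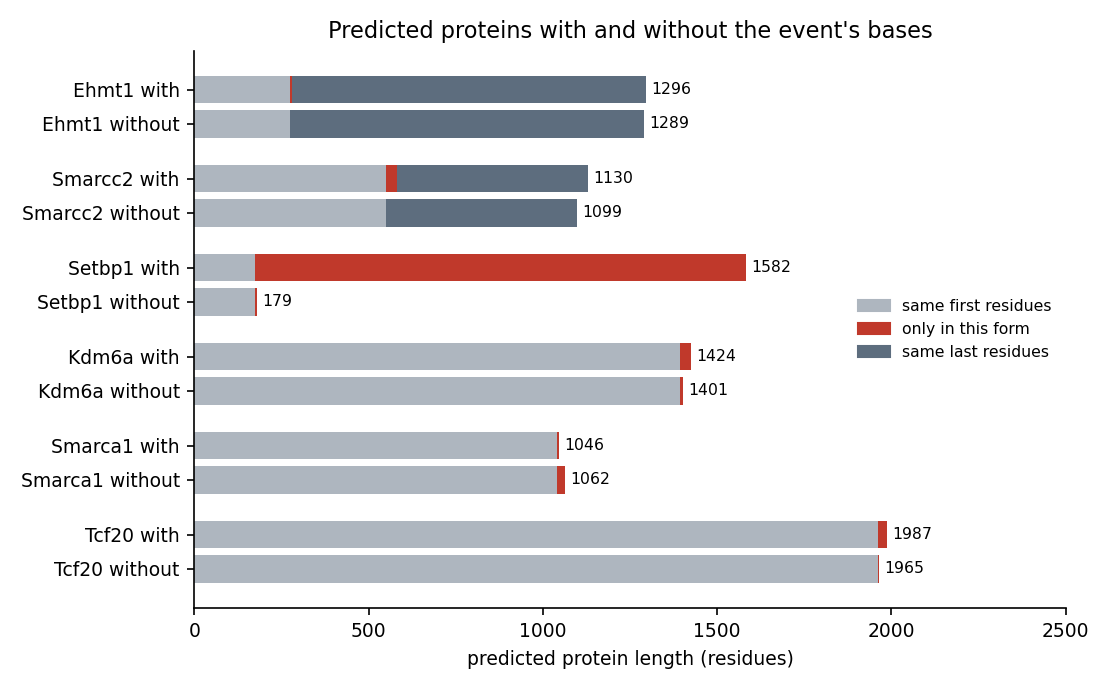
Predicted protein length in residues for the 6 events that touch coding sequence, with the event's bases (upper bar of each pair) and without them (lower bar). Light grey marks the shared first residues, dark grey the shared last residues and red the residues found in that form alone. Ehmt1 and Smarcc2 differ by an internal stretch, Kdm6a, Smarca1 and Tcf20 by their last residues, and Setbp1 without its exon keeps 173 of 1582 residues and ends at 179.

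The lists take the place of replicates here, and each held only some of the 9 events. List 1 held 3 (Ehmt1, Smarca1 and Setbp1), or 1.11% of its events. List 2 held 6 (Jarid2, Sin3a, Smarca1, Dnmt3b, Tcf20 and Setbp1), or 2.27%. List 3 held 4 (Jarid2, Kdm6a, Smarcc2 and Smarca1), or 1.56%. Thus 3 of 9 events (33.3%, 95% Wilson interval 12.1% to 64.6%) stood in more than 1 list, against 123 of 634 other listed events (19.4%, 16.5% to 22.7%). The intervals overlap widely, and they cover the counting of events only. For 6 of the 9 genes the event rests on a single list, and leaving out list 2 left 1 event in more than 1 list (Smarca1). Over all genes, 0.592% of 20620 multi-exon protein-coding genes had an identical event in more than 1 list and 0.102% in all 3, from which nothing is read here, since the listing chose the genes.

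**Figure D3:**
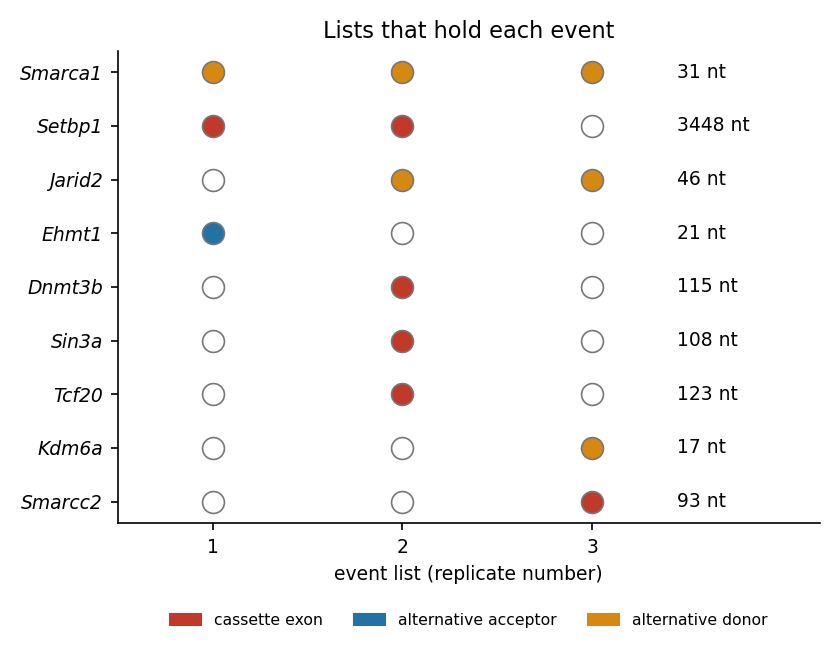
Lists that hold each event, with the list (replicate number) on the horizontal axis and 1 gene per line. A filled circle means that the event was listed, an open circle that it was not, colours give the type, and the length of the event stands at the right. Smarca1 is filled in all 3 lists, Setbp1 and Jarid2 in 2, and the other 6 genes in 1.

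The stated rule for choosing the genes used neither place in the gene nor frame. It does not by itself set the 9 apart from other chromatin genes with an event. In place and in frame, the shares among the 9 events had wide intervals that overlapped those of the other listed events. They touched coding sequence in 6 of 9 cases (66.7%, 35.4% to 87.9%), against 423 of 614 other events that matched a protein-coding gene (68.9%, 65.1% to 72.4%). They lay wholly ahead of the coding sequence in 3 of 9 cases (33.3%, 12.1% to 64.6%), against 124 of 614 (20.2%, 17.2% to 23.6%). Of the cassette exons, 3 of 5 (Sin3a, Smarcc2 and Tcf20) had a length divisible by 3 (60%, 23.1% to 88.2%), against 267 of 434 others (61.5%, 56.9% to 66%). Of these 3, the Smarcc2 exon was the only one through which the frame is read on both sides. Of the remaining internal coding exons of these 9 genes, 61 of 157 (38.9%, 31.6% to 46.7%) had a length divisible by 3. The annotation was used in choosing the genes, through the edges of the exon that holds the event, so the next share is a description. An annotated transcript with the form that lacks the event existed for 8 of 9 genes, all but Setbp1 (88.9%, 56.5% to 98%), against 543 of 614 other events (88.4%, 85.7% to 90.7%).

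The position at the end of the gene was noticed after the values were seen and is given with no test. The next-to-last exon (where this was not exon 2) held 3 of 9 events (33.3%, 12.1% to 64.6%), against 61 of 597 others (10.2%, 8.04% to 12.9%). Exon 1 or 2 held 3 of 9 (33.3%, 12.1% to 64.6%), against 160 of 597 (26.8%, 23.4% to 30.5%). The event held the stop codon of its transcript in 2 of 9 genes, Smarca1 and Tcf20 (22.2%, 6.32% to 54.7%), against 27 of 514 others (5.25%, 3.63% to 7.53%). The intervals overlap in each of these comparisons, by little for the next-to-last exon and the stop codon. Events of the other chromatin regulators on the wider list below, where they matched annotated edges, lay outside the next-to-last exon. They held no 3′UTR base of a protein-coding transcript either.

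Length set 1 event apart. The cassette exons of Smarcc2 (93 nt), Sin3a (108 nt), Dnmt3b (115 nt) and Tcf20 (123 nt) were longer than 61.8% to 77.2% of the 434 other listed cassette exons, whose median was 79.5 nt. The Setbp1 exon, with 3448 nt, was longer than all 434, the longest of which had 600 nt. Of the donor shifts, that of Kdm6a (17 nt) lay below the median of 24 nt for the 90 other donor events, and those of Smarca1 (31 nt) and Jarid2 (46 nt) lay above it. The acceptor shift of Ehmt1 (21 nt) was longer than 65 of 96 other acceptor events, whose median was 9.5 nt.

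**Figure D4:**
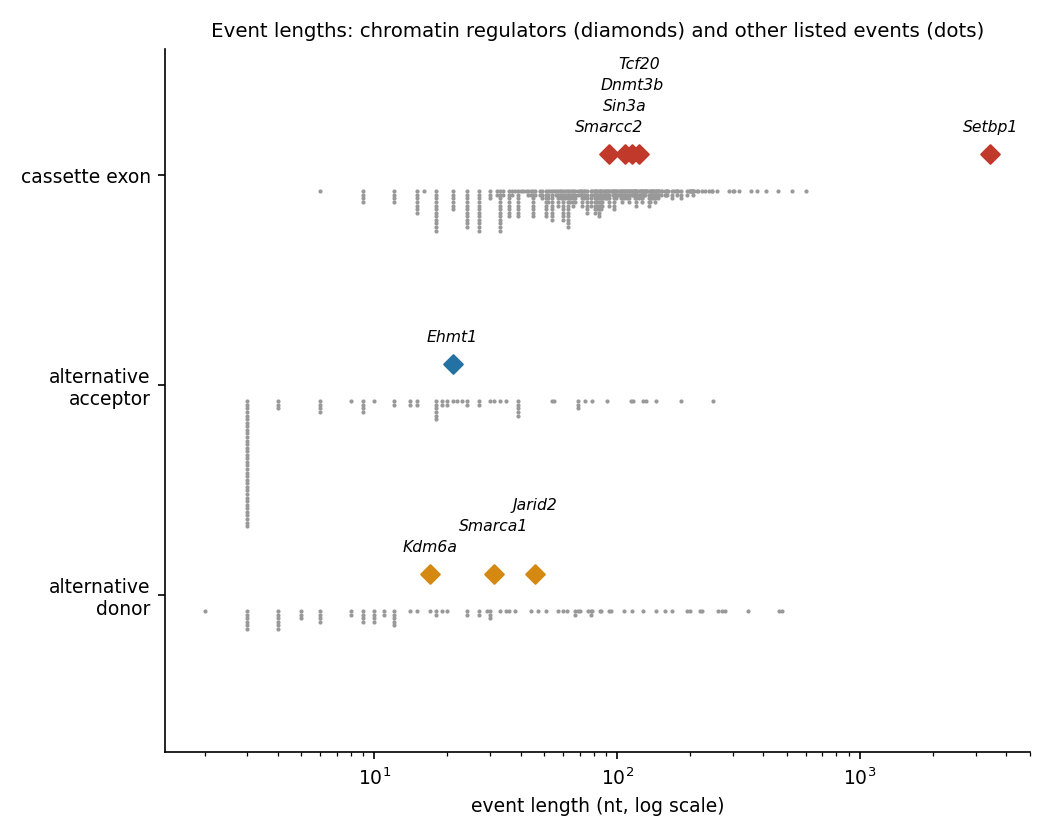
Event length in nt (log scale) by type. Diamonds are the events of the 9 chromatin regulators and grey dots, stacked where lengths are equal, the other listed events of the same type (434 cassette exons, 96 acceptors, 90 donors). The Setbp1 exon at 3448 nt lies beyond all dots, and the other 8 events lie inside the range of their type.

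Matches were counted to the sequences that the study's experiments tie to Sfpq binding (CUGU and CUGUA, searched as CTGT and CTGTA on the transcript strand). The count used a 200-nt window of mRNA centred on each event. For Jarid2 and Sin3a, whose events lie near the 5′ end of the mRNA, the window was moved inward and is not centred. CTGTA was found in 0 of 9 windows, against 82 of 602 windows of other listed events (13.6%). The shorter CTGT, which every CTGTA contains, was found in 3 of 9, those of Jarid2, Tcf20 and Setbp1, against 385 of 602 (64%). In a 400-nt window, chosen after the data were seen, CTGTA was found in 2 of 9 (Jarid2 and Smarca1), against 155 of 599 (25.9%). These windows hold exons only. For Setbp1 both windows lay in the middle of its 3448-nt exon and reached neither edge of it. The study's methods count further short words as forms of the Sfpq-binding sequences, and those words were not searched. The counts therefore do not show that a window lacks every Sfpq-binding word. Intron sequence was not searched either, and the counts say only whether the searched letters stand in the spliced mRNA within the window.

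The 9 genes were set beside a wider list of 209 chromatin regulators in 11 families, written with the earlier results in view, of which the 9 are part. Of the 209, 20 had a listed event (9.57%, 6.28% to 14.3%). Of the 200 that remain without the 9 chosen genes, 11 had one (5.5%, 3.1% to 9.58%), against 2.81% of all 20620 multi-exon protein-coding genes. Chromatin regulators have many exons (a median of 17 for the 209 genes and 8 for all genes, counted in the transcript with most). Among genes with at least 10 exons, 10 of 163 (6.13%, 3.37% to 10.9%) of the remaining regulators had an event, against 4.96% of 8165 genes. Both backgrounds count annotated genes whether or not P19 cells express them. Expression was therefore not accounted for in either comparison. An identical event in more than 1 list was found in 2 of the 200 (1%, 0.275% to 3.57%), in Hdac5 and Gatad2a. The share over all 20620 genes was 0.592%, inside that interval.

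The family counts are small, they include the 9 genes chosen for having an event, and nothing is read from them beside the 2.81% of all genes. In the H3K9 and heterochromatin group 3 of 12 genes had an event (25%, 8.89% to 53.2%). Beside Ehmt1 these were Setdb1, another H3K9 methyltransferase, with a donor shift of 38 nt within its untranslated exon 1, and Cbx5 (HP1 alpha), which reads that mark, with a 100-nt cassette exon in the 5′UTR. Together with Jarid2, Sin3a and Dnmt3b this makes 5 of the 20 genes whose event lay in the leader. Of the listed events outside the 9 genes, 124 of 614 (20.2%) lay wholly in the 5′UTR. Nothing is read from the count of 5, which includes chosen genes. Among the deacetylase complexes 5 of 37 genes, Sin3a included, had events (13.5%, 5.91% to 28%). Mta1 and Gatad2a, subunits of NuRD, had a coding cassette exon of 36 nt and a coding donor shift of 9 nt, both of which keep the frame, and Gatad2a also had a 16-nt cassette event, in lists 2 and 3, that matched no annotated exon exactly. The deacetylases Hdac5 and Hdac10 had a cassette exon of 112 nt and a donor shift of 11 nt, and no protein-coding transcript held the bases of either. Among the remodellers Smarca1 was joined by Chd6 (118-nt coding exon, not divisible by 3) and by Srcap (183-nt coding exon, divisible by 3). Srcap is the ATPase that deposits the histone variant H2A.Z. Kat5 (Tip60), an acetyltransferase, had a retained intron of 99 nt, and Brpf1, a scaffold of acetyltransferase complexes, had an acceptor shift of 3 coding nt, which keeps the frame. Of the 18 genes of Polycomb repressive complex 1, 0 had a listed event, with an interval of 0% to 17.6% that holds the share over all genes. The same was true of the 20 other histone methyltransferases and partners (0 genes, 0% to 16.1%). The families of Jarid2 (11 genes), Kdm6a (21 genes), Smarcc2 (25 genes) and Dnmt3b (12 genes) had no event outside these chosen genes.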

How the data were processed

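RNA from P19 cells (3 SFPQ knockdown and 3 control samples) was sequenced as paired ends. The kit is given as NEBNext Ultra Directional in the labels and as TruSeq Stranded mRNA in the study's methods. Tools named in the submitters' processing notes are cutadapt, Bowtie2 and STAR, with the build mm10 and no versions, and the methods name SpliceTrap for splicing. The authors deposited 3 lists of chromosome, start, end and event type, and the threshold for listing and the matching of control to knockdown samples are not given in the sources used here. The sources do not say that the samples were separate cultures, and lists may agree for technical reasons.

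Repeated lines (5, 4 and 5 of 275, 269 and 262) were counted once, and 1 line of list 2 with an unreadable start was left out. Starts were raised by 1, since 433 of 439 cassette events then equalled a GENCODE M21 exon and 0 did otherwise. Events were matched exactly to annotated edges (625 of 643), the rest by locus. For exon numbers, frames and proteins the protein-coding transcript with the event and the most exons was taken, and the form without it was made by removing its bases. Shares have 95% Wilson intervals, and no tests were run. The matching and the translation were checked on planted events. Python 3.11.15 was used. The genes named were the 9 chosen ones, the genes of the wider list with an event, except 1 that is counted but not reported here, and Sfpq. The 9 genes, the wider list and the measures were chosen with earlier results of these data known.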

Additional observations from a re-analysis of the deposited data

How the results depend on the processing

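The 9 events were also found with transcripts tagged basic. With edges within 3 nt, or with any interval inside the locus, the count stayed at 9. These looser matches could not lose an event, since the genes were chosen by an exact match, and they added none. Leaving out each list in turn left 6 to 8 events, 1 to 2 in more than 1 list, 50% to 60% of cassette exons with a length divisible by 3, and 14 to 16 chromatin regulators with an event. The number in more than 1 list was 1 without list 2. The count of 20 chromatin regulators was 11 without the 9 chosen genes and 5 when an identical event in more than 1 list was asked for (chosen after seeing the data). The CTGTA count of 0 became 3 with CTGT and 2 with a 400-nt window (chosen after seeing the data). The other alternatives stayed within 1.5 times the reported count. Splice-site scores and a search of 100 or 200 nt of flanking genome were planned but not run, since they need genome sequence and only transcript sequences were used here. No paired analysis was possible because the lists carry no values per sample. The lists give no depth, direction or error, so a wrong call cannot be told from a right one.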
